A study of Mus musculus with 2 samples.

Results

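The F-box genes measured here were the 39 probes, of 41174 on the array, whose deposited gene name begins with Fbxo, Fbxl or Fbxw. They stand for 31 genes, each probe was printed as a single spot, and 24 carry an Fbxo name, 10 an Fbxl name and 5 an Fbxw name. The set was selected on gene names with 1 result already in view, the high value of Fbxo31, so that value is given as a description. Interscapular brown adipose tissue, the heat-producing fat between the shoulder blades, was compared between wild-type (WT) C57BL/6 males and C57BL/6 males lacking the nuclear receptor gene RORa (RORa-/-) together with a second gene (DKO). The labels give 4 male mice per genotype, 2 to 3 months old, with tissue collected around circadian time 20, and do not say whether RNA of the mice was pooled or which part of each gene is deleted. The same comparison was hybridised to 2 arrays with the dyes exchanged, DKO in Cy5 on the first and in Cy3 on the second, so each genotype counted as 1 replicate. No test between genotypes was possible. Each SD below is the spread of 2 arrays, which holds dye effects and measurement error. Both arrays were assumed to use 1 RNA preparation per genotype, so the SD is not taken as the spread between mice.

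F-box proteins are the exchangeable substrate receptors of SCF ubiquitin ligases. The F-box motif binds the adaptor Skp1, which joins the receptor to the cullin Cul1 and the RING protein Rbx1, and the rest of the receptor holds the protein to be ubiquitinated. The name series mark that second part: leucine-rich repeats in Fbxl, WD40 repeats in Fbxw, and other or no known domains in Fbxo. Fbxo31 is known as a receptor induced by DNA damage and for the degradation of cyclin D1, Fbxo32 as the muscle atrophy ligase atrogin-1, and Fbxw7 as the receptor for cyclin E, Myc and Notch.

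The single Fbxo31 probe stood apart from every other F-box probe. It is listed under the older name Fbxo14 (probe A_51_P356283, NM_133765), and the accession matches Fbxo31 in RefSeq. On the array with DKO in Cy5 its background-subtracted intensity was 278 in WT and 1797 in DKO. With the dyes exchanged it was 388 in WT and 1170 in DKO. These raw intensities still carry the difference between dyes, which is why the uncorrected DKO over WT ratios were 6.48 and 3.01. After normalisation within each array the log2 intensities were 8.68 and 8.64 in WT and 10.54 and 10.44 in DKO, so both DKO values lay above both WT values. The normalised log2 ratios of DKO over WT were 1.85 with DKO in Cy5 and 1.79 with DKO in Cy3, a mean of 1.82 ± 0.04 (SD, n = 2 arrays), or 3.54-fold. A dye effect reverses sign between the arrays, and this dye term, computed as 0.5 times the difference between the arrays' ratios, was 0.03 for Fbxo31.

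**Figure D1:**
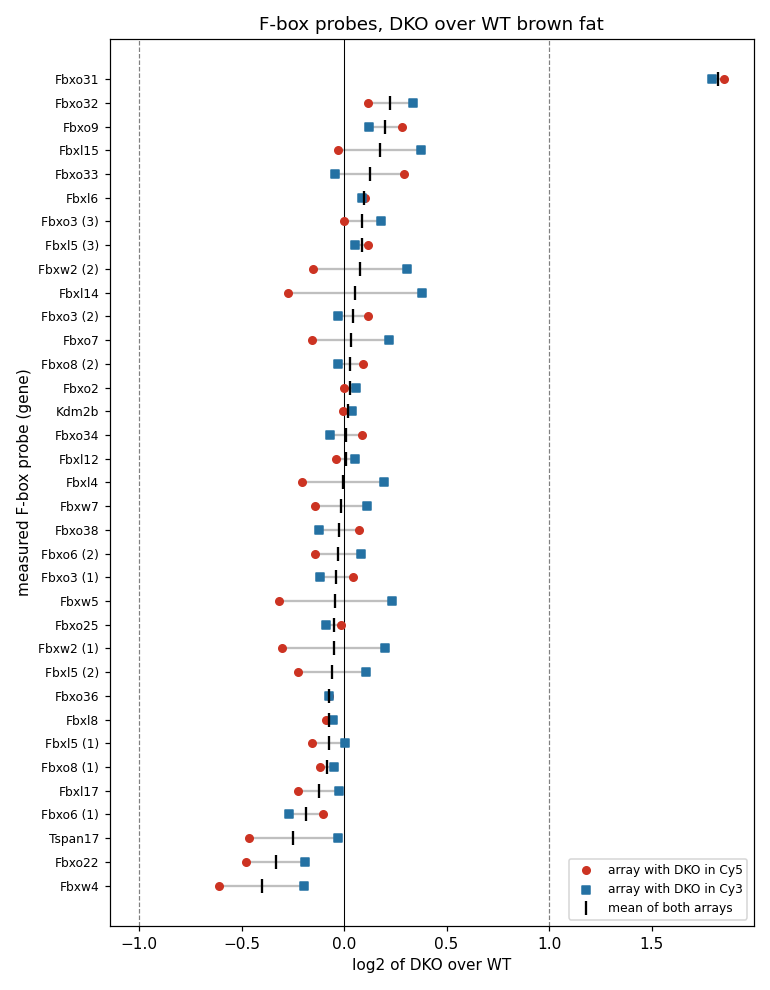
Log2 ratio of DKO over WT for the 35 F-box probes measured, in order of the mean of both arrays; circles are the array with DKO in Cy5, squares the array with DKO in Cy3, ticks the mean, dashed lines 2-fold, and a number in brackets tells apart probes of one gene. Fbxo31 sits at 1.82 and the other 34 probes lie between -0.40 and 0.23.

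A probe was taken as measured when at least 1 genotype gave signal on both arrays that the scanner software marked as well above background, that is, by over 2.6 SDs. It was counted as higher or lower when the mean ratio was at least 2-fold, each array was at least 1.5-fold the same way, and the signal of the higher genotype passed that background limit on each array. Of the 39 F-box probes 35 were measured, for 28 genes. The probes of Fbxl2, Fbxo16 and Fbxo17 and 1 of the 2 probes of Fbxo25 were not. Fbxo31 was the 1 member counted as higher, beside 32 of all 32424 measured probes (0.0987%), and 0 members were lower, beside 7 (0.0216%). Since Fbxo31 was known to be high when the set was chosen, the count is no evidence about the family. Among all measured probes Fbxo31 ranked 5. Above it were AK006096 (2.64), the cytochrome P450 gene Cyp2b9 (2.39), the metallothionein gene Mt2 (1.90) and the thyroid hormone deiodinase gene Dio2 (1.89). At the edge of the size rule, the myoglobin gene Mb (1.004) was just inside and the sphingosine phosphate lyase gene Sgpl1 (0.98) just outside.

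Among the 35 measured members the next was Fbxo32, the atrophy ligase, at 0.12 and 0.34 on the arrays with DKO in Cy5 and Cy3 (mean 0.23 ± 0.16, SD, n = 2 arrays). Its intensities were 41.6 in WT and 68.3 in DKO on the first array and 34.9 and 54.8 on the second, close to the background, where the offset used here pulls ratios toward 0. In the scanner software's own ratios Fbxo32 stood at 0.14 and 0.92 (mean 0.53 ± 0.55), so a single array made most of the mean. By that mean Fbxo32 was again next among the members after Fbxo31 at 1.98. The gap between Fbxo31 and the next member was 1.60 in log2, or 3.03-fold. On the single arrays the gap was 1.56, with Fbxo33 (0.29) next, and 1.41, with Fbxl14 (0.38) next, so a different member was next on each array. Fbxo21, an F-box gene printed under an accession and described further on, was above these members on both arrays at 0.49 and 0.60.

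RefSeq promoter sequence was read for the members to show what lies upstream of the gene at the top, of Fbxo21, the next highest F-box probe when probes with other names are included, and of Fbxo22, the second lowest member. Each line gives the 250 bases before the annotated start in GRCm38.p6, written 5′ to 3′ on the gene's strand, with GC boxes (GGGCGG on either strand) in capitals.
Fbxo31, chr8:121578807-121579056, minus strand: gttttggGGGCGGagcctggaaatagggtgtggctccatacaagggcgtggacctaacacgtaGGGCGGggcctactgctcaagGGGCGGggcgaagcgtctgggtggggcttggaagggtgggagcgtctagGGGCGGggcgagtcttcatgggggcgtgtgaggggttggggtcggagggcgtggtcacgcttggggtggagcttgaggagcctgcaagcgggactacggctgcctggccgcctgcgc
Fbxo21, chr5:117976520-117976769, plus strand: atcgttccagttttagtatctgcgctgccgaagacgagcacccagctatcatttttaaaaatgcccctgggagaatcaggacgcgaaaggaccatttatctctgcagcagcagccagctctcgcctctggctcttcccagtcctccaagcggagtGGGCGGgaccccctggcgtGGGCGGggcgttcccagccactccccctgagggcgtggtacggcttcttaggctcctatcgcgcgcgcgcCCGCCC
Fbxo22, chr9:55208685-55208934, plus strand: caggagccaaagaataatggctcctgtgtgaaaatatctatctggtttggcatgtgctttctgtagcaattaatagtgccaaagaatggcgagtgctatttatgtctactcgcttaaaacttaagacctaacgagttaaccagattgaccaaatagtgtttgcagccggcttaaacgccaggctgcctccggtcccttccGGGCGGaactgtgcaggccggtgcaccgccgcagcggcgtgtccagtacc
The Fbxo31 sequence held 4 GC boxes, the Fbxo21 sequence 3 and the Fbxo22 sequence 1, and the GC contents were 68.0%, 62.0% and 50.4%. Fbxl20 was the lowest F-box probe when probes with other names are included. Its sequence, not printed here, held 1 GC box at a GC content of 77.6%, the highest of these sequences. Whether GC content is related to the ratios was not tested. ROR receptors are known to bind the motif AGGTCA behind an AT-rich stretch. AGGTCA, searched on both strands, was in 0 of 35 promoter entries of 22 of the 31 member genes and in 14.0% of all 32851 entries, and TAGGTCA, which contains it, was in 0 of 35 and 2.23%. GGGCGG was in 23 of 35 (65.7%) against 32.7% of all entries. The E-box CACGTG was in 1 of 35, that of Fbxl2, against 6.02%, and the cAMP response element TGACGTCA in 0 of 35 against 1.55%. The median GC content was 59.2% in member entries and 52.4% in all. Several entries belong to one gene and overlap, and the absence of these letters from a 250-base window says nothing about sites elsewhere. The table holds no entry for Fbxo32 or Fbxw4.

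Among the other Fbxo genes the values lay close to 0. The arrays disagreed in sign for 55% of the 20 measured probes, beside 62.7% of all measured probes. Of the 20, 35% were below 0 on both arrays and 10% above, beside 17.8% and 19.5% of all. Fbxo9, a receptor for regulators of mTOR signalling, was at 0.28 and 0.12 (mean 0.20 ± 0.11), above 0 on both arrays. Fbxo33 was at 0.29 and -0.04 (mean 0.13 ± 0.24), and Fbxl15, printed on the array as Fbxo37, at -0.03 and 0.38 (mean 0.17 ± 0.29), so for both a single array made the mean. The 3 probes of Fbxo3 read 0.09, 0.04 and -0.04. Fbxo7, which is linked to mitophagy and parkinsonism, was at -0.15 and 0.22 (mean 0.03 ± 0.26). The glycoprotein receptor Fbxo2 was at 0.03 ± 0.04, whereas its relative Fbxo6 was at -0.10 and -0.27 (mean -0.19 ± 0.12) on 1 probe and at -0.03 ± 0.16 on the other. Fbxo34 read 0.01, Fbxo38 -0.02 and the measured Fbxo25 probe -0.05, each with the arrays within 0.25 of 0. Fbxo36 read -0.07 on both arrays. The 2 Fbxo8 probes read 0.03 and -0.08.

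The lowest Fbxo values belonged to Fbxo22 and to Tspan17, a tetraspanin gene printed under the older name Fbxo23. Fbxo22, a receptor for methylated p53 and for histone demethylases, was at -0.48 and -0.19 (mean -0.33 ± 0.20). Its intensity was 77.4 in WT and 64.6 in DKO on the first array and 87.0 and 55.1 on the second. A second probe described as Fbxo22, 0610033L19, read -0.17 and 0.03 (mean -0.07 ± 0.14). Tspan17 was at -0.47 and -0.03 (mean -0.25 ± 0.31). Over the 21 measured Fbxo probes the median was 0.01, and -0.01 without Fbxo31.

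The 9 measured probes with a printed Fbxl name were the most closely grouped, between -0.08 and 0.10, with a median of 0.01. This holds for the printed names only. Fbxl15 (0.17), Fbxl17 (-0.12) and Fbxl20 (-0.46), printed under other names, lay outside that range. Fbxl6 was at 0.10 ± 0.01. Fbxl5, the iron-sensing receptor for iron regulatory protein IRP2, had 3 probes at 0.09, -0.06 and -0.08. The mitochondrial Fbxl4 was at -0.20 and 0.19 (mean -0.00 ± 0.28), Fbxl12 at 0.01, Fbxl8 at -0.07 ± 0.02, and the histone demethylase gene Kdm2b, printed as Fbxl10, at 0.02 ± 0.03. Fbxl14, a receptor for Snail-family factors, read -0.28 with DKO in Cy5 and 0.38 with DKO in Cy3 (mean 0.05 ± 0.46). Its dye term, 0.33, was the largest among the members. Fbxl17, printed as Fbxo13 and so counted under its Fbxo name, was at -0.12 ± 0.14.

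The 5 Fbxw probes leaned low with DKO in Cy5, with a median of -0.30, and high with DKO in Cy3, with a median of 0.20. Fbxw4, known from the split-hand locus dactylaplasia, was the lowest member at -0.61 and -0.19 (mean -0.40 ± 0.29). Its intensities were 325 in WT and 320.2 in DKO on the first array and 392 and 256 on the second, and it was the 1 Fbxw probe below 0 on both arrays. Fbxw5 was at -0.32 and 0.23 (mean -0.04 ± 0.39), the 2 Fbxw2 probes at 0.08 ± 0.33 and -0.05 ± 0.36, and Fbxw7 at -0.01 ± 0.18. For these 4 probes the sign changed with the dye.

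**Figure D2:**
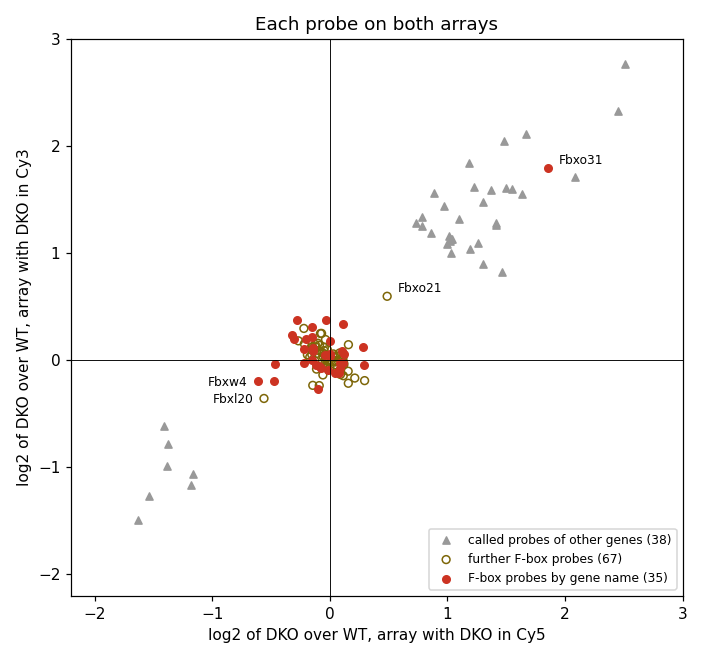
Log2 ratio of DKO over WT on the array with DKO in Cy3 against that with DKO in Cy5, for 35 F-box probes by gene name (filled circles), 67 further F-box probes named by description or current symbol (open circles) and the 38 probes of other genes counted as higher or lower (triangles). Fbxo31 at 1.85 and 1.79 lies among the triangles, and Fbxo21 at 0.49 and 0.60 lies between them and the cloud around 0.

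Taken as a group, the measured F-box probes had a median log2 ratio of -0.00 (-0.07 with DKO in Cy5, 0.05 with DKO in Cy3), beside 0.00 for all measured probes of the array. Without Fbxo31 the SD of the 34 means was 0.13, beside 0.12 for all measured probes, and 32 of the 34 (94.1%) lay within 0.25 of 0, beside 96.0%. The median size of their means, sign aside, was 0.07, beside 0.04 for all measured probes. Of the 35, 5 were above 0 on both arrays (14.3%), 9 were below 0 on both (25.7%) and 21 changed sign between the arrays (60.0%). The shares of all measured probes were 19.5%, 17.8% and 62.7%. The correlation between the arrays over the members was 0.76 with Fbxo31 and 0.05 without it, so it rested on that probe; over all measured probes it was -0.02. Probes on an array share its hybridisation and dyes and are not replicates, so these correlations are descriptions. The mean exceeded the dye term in size for 13 of the 34 other members. That holds exactly when both arrays have the same sign, so it restates the sign counts and is no separate check. The 5 genes with more than 1 measured member probe spread by 0.11 to 0.16 between their probes' means.

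Other F-box genes sit on the array under clone or accession names. Descriptions and current symbols named 79 further F-box probes, a set added after the data were seen, of which 67 were measured. Of these 0 passed the size rule in either direction, beside 0.0987% higher and 0.0216% lower of all measured probes. Their median was 0.00 and their range -0.46 to 0.54. The highest was Fbxo21 (AK048131), known as a ligase of the muscle atrophy programme, at 0.49 and 0.60 (mean 0.54 ± 0.08). Its intensity was 454 in WT and 1053 in DKO on the first array and 618 and 747 on the second, and after normalisation DKO was above WT on both. A second probe described as Fbxo21 read -0.04 and 0.19 (mean 0.08 ± 0.16). The lowest was Fbxl20, printed as 4632423N09Rik, a receptor that acts on the synaptic protein RIM1, at -0.56 and -0.36 (mean -0.46 ± 0.14). With these probes included, the gap between Fbxo31 and the next F-box probe was 1.28 in place of 1.60.

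F-box genes of known circadian or cell cycle role were among the further probes. The 2 probes of Skp2, the receptor for the cell cycle inhibitor p27, both read 0.05, Fbxw11, a receptor for the clock's PER proteins, read 0.05 ± 0.34, and Ccnf, the cyclin that gave the F-box its name, read -0.00. The probe of Btrc, the paralogue of Fbxw11, was not measured above background. The histone demethylase gene Kdm2a read -0.02. Probe AK011820 is described as F-box only protein 31, but its accession matches Fbxo5, the inhibitor of the anaphase-promoting complex also known as Emi1. It read -0.06 and 0.04 (mean -0.01). It was taken as Fbxo5 on its accession, but the description and the accession conflict and its probe sequence was not used here; were the description right, it would be a second Fbxo31 probe without the high ratio. The Fbxo31 value rests on 1 probe.

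The scanner software's error model gave a p-value for each ratio on each array, which covers measurement error on that array and not the spread between mice. Taking p under 0.01 on both arrays in the same direction, 160 of 32424 probes were higher (0.493%) and 137 lower (0.423%). Fbxo31 was the 1 member among the higher and 0 members were among the lower. Of the further F-box probes Fbxo21 was higher and Fbxl20 lower by this rule.

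**Figure D3:**
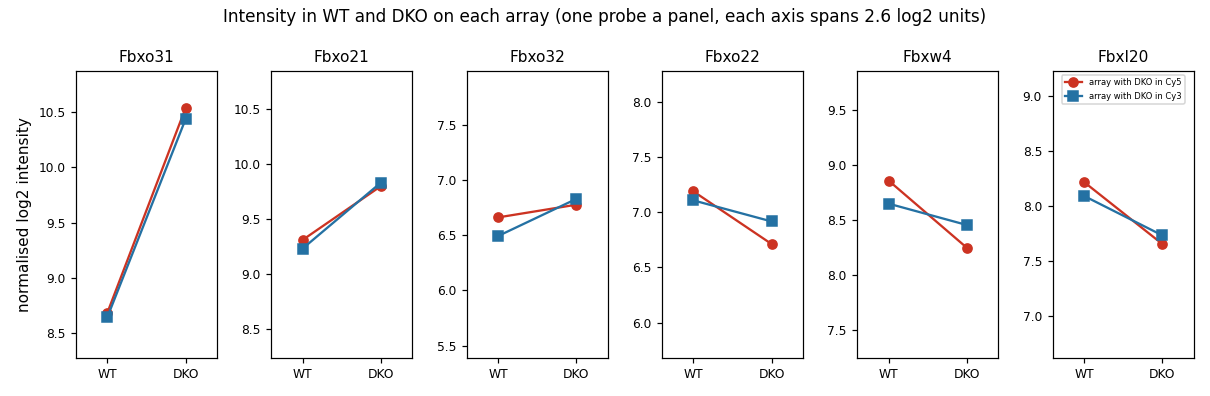
Normalised log2 intensity in WT and DKO on each array for 6 F-box probes, joined within an array; each panel has its own vertical axis of equal span, so slopes can be compared and levels between panels cannot. Fbxo31 is 1.85 and 1.79 higher in DKO, Fbxo21 0.49 and 0.60 higher, and Fbxo22, Fbxw4 and Fbxl20 are lower on both arrays.

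The SCF partners that all F-box proteins share were read too. Of 30 names listed for core and regulatory genes, some of them a second name of a listed gene, 26 had a measured probe. The median of the 35 measured probes was 0.04, and 0 of them passed the size rule. That count is near the share of all measured probes, 0.0987% higher and 0.0216% lower, so it is no result about the partners. The adaptor Skp1 was at 0.09 and 0.29 (mean 0.19 ± 0.14). The scaffold Cul1 read 0.12 and 0.03 on 2 probes, and the RING gene Rbx1 read 0.02, -0.07 and -0.07 on 3. The highest was Sugt1, a co-chaperone that binds Skp1, at 0.76 and 0.52 (mean 0.64 ± 0.17). The NEDD8 conjugating enzyme Ube2m read -0.49 with DKO in Cy5 and 0.40 with DKO in Cy3 on 1 probe and nearly the same on another, so its mean of -0.05 came from opposite readings.

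Proteins reported as substrates of Fbxo31 were listed too, although the arrays read their RNA and not their protein. All 7 genes had measured probes, and 0 of 9 probes passed the size rule, beside 0.0987% higher and 0.0216% lower of all measured probes. The cyclin gene Ccnd1 was at -0.04 and 0.04 (mean 0.00 ± 0.06), the replication licensing factor Cdt1 at 0.09 ± 0.06, and the p53 ligase gene Mdm2 at 0.06 and -0.03 on 2 probes. Map2k6, the kinase MKK6 upstream of p38, read -0.24 and -0.33 (mean -0.29 ± 0.06) on probe U39066, which the software put at -1.12, and 0.03 ± 0.01 on its other probe. The 2 Map2k6 probes thus disagreed.

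In a list of ligases and other genes tied to muscle atrophy and FoxO factors, 12 of 17 genes had measured probes, and 2 of the 14 probes passed the size rule, both higher. They were Fbxo31 itself and Bnip3, a mitophagy receptor, at 1.19 and 1.04 (mean 1.11 ± 0.11). The list median was 0.13, 8 of its 14 probes were above 0 on both arrays (57.1%, beside 19.5% of all measured probes) and 0 were below 0 on both. Foxo1 read 0.25 ± 0.06 and 0.22 ± 0.25 on 2 probes, Foxo3 -0.05 ± 0.17, the ligase Trim32 0.08 ± 0.00 and the cathepsin gene Ctsl 0.01 ± 0.02. Fbxo31, Fbxo21 and Fbxo32 are all in this list, which was drawn up with earlier results known, so its counts are a description and not support for a shift of the list; by the size rule 0.0987% of all measured probes were higher.

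Markers of skeletal muscle, which borders this fat depot, were also read. Of 24 measured muscle probes, for 20 of 22 listed genes, 19 were above 0 on both arrays (79.2%, beside 19.5% of all measured probes), 0 were below 0 on both, 5 changed sign between the arrays and 4 passed the size rule, those of Eno3 (1.21), Myom2 (1.08), Myh2 (1.02) and Mb (1.004). The list median was 0.62 and the range 0.09 to 1.21. Summed normalised muscle intensity was 21625 in WT and 29147 in DKO with DKO in Cy5, and 19225 and 32822 with DKO in Cy3. A second Myom2 probe was not above background in either genotype. The muscle share in the tissue and its part in the Fbxo31, Fbxo32 and Fbxo21 values was not tested, and in bulk tissue more cells of a type and more RNA per cell cannot be told apart.

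The other marker lists were measured in the same way. All 12 brown adipocyte genes had measured probes, with Dio2 (1.89) and the fatty acid elongase Elovl3 (1.02) counted as higher, the uncoupling protein Ucp1 at 0.73 and a list median of 0.01. Of the 15 probes, 6 were above 0 on both arrays, 3 were below 0 on both and 6 changed sign. Ppargc1a read 0.54 and 0.14 on 2 probes. The median includes 3 probes marked as saturated, whose ratios cannot be relied on. Erythroid probes had a median of -0.46 and fibroblast probes -0.11, while macrophage (0.05), endothelial (0.03), T cell (0.04) and nerve (0.01) medians were near 0, and 0 probes of these 6 lists passed the size rule. As a check of the labels, the 2 Rora probes read -0.38 ± 0.04 and -0.47 ± 0.10, lower in DKO on both arrays, and neither passed the size rule. Their intensities were dim, 37.8 to 56.2 in WT and 12.7 to 44.2 in DKO. Whether the DKO values alone passed the background limit was not examined, so they do not show remaining Rora RNA. The same probes stood at -0.96 and -1.52 in the scanner software's ratios. Signal well above background was found for 77.6% to 85.4% of spots per channel.

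**Figure D4:**
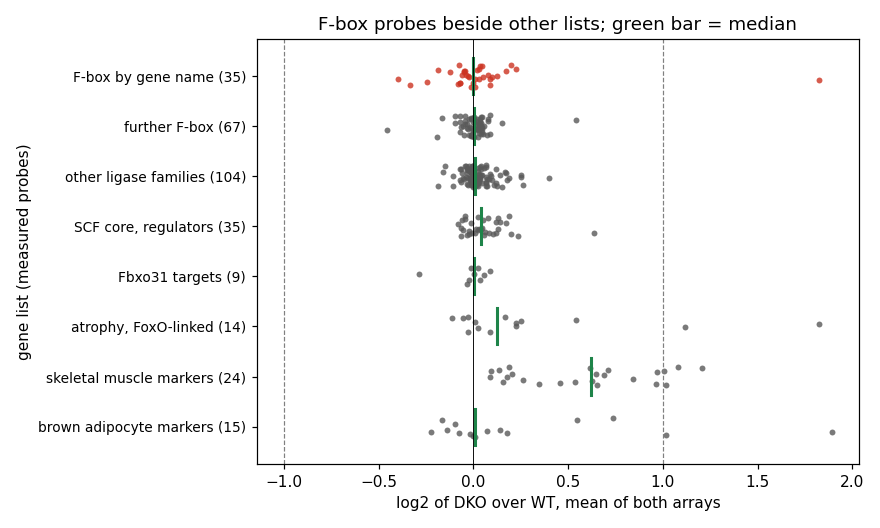
Mean log2 ratio of DKO over WT of each measured probe by gene list, with the number of probes in brackets, the list median as a green bar and 2-fold as dashed lines; points are spread vertically for visibility. In the F-box row Fbxo31 at 1.82 stands apart from the rest, and the muscle marker row has a median of 0.62.

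Beside the F-box genes, other families of ubiquitin ligase components were read by name prefix: Klhl and Kbtbd, Asb, Socs and Spsb, Btbd, Trim, Rnf, and the cullins. They had 104 measured probes of 122, of which 0 passed the size rule, with a median of 0.01 and a range of -0.19 to 0.40. The highest was the muscle RING finger gene Trim54, printed as Rnf30, at 0.40, followed by the muscle gene Asb5 at 0.26, and the lowest was Rnf125 at -0.19. Against these 104 probes and the 101 other F-box probes, Fbxo31, known to be high beforehand, was the single probe past 2-fold. Of all measured probes 0.0987% were higher and 0.0216% lower by the size rule. A count of 0 is near that share, so it is no result about these families.

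The genes beside Fbxo31 on its chromosome were looked up in RefSeq by order. Of the 10 nearest annotated genes, 5 on each side, 3 had probes, and 0 of their 4 probes passed the size rule. The shares of all measured probes were 0.0987% higher and 0.0216% lower. Map1lc3b, the autophagosome protein LC3B, was at 0.29 and 0.24 (mean 0.27 ± 0.04), above 0 on both arrays. Zcchc14 read 0.02 ± 0.04 and 0.05 ± 0.03 on 2 probes, and 1700018B08Rik read -0.01 ± 0.07.

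The Fbxo31 value was then followed through the processing. It ranged from 1.79 to 1.98 over 12 settings, some of which changed only the filter on probes and left its ratio as it was. Its rank among the measured probes of the array ranged from 4 to 6. Fbxo21 ranged from 0.49 to 0.67, Fbxo32 from 0.12 to 0.53, Fbxw4 from -0.61 to -0.19 and Fbxl20 from -0.59 to -0.36. Among the probes read, Fbxo31 was the sole one counted, by the size rule or its variant, under all 15 alternatives run. Of these, 14 read the members alone and 1 added the further F-box probes. Fbxo31 was known to be high beforehand and several alternatives reuse its ratio, so this is a description and no separate support.

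**Figure D5:**
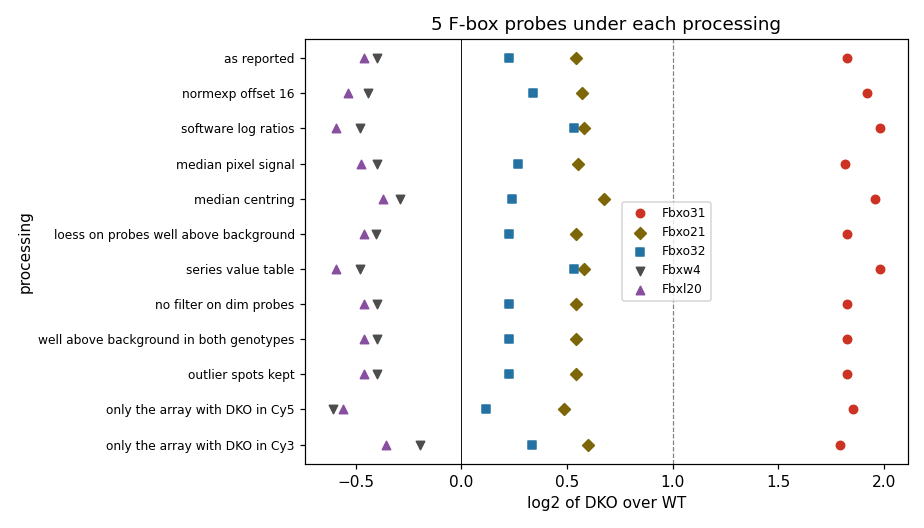
Log2 ratio of DKO over WT of 5 F-box probes under each processing, one row a processing, with 2-fold as a dashed line. Fbxo31 stays between 1.79 and 1.98, Fbxo21 between 0.49 and 0.67, Fbxo32 between 0.12 and 0.53, and the probes of Fbxw4 and Fbxl20 stay below 0.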

How the data were processed

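Per the labels' protocols, RNA was amplified, labelled with Cy3 or Cy5 and hybridised to Agilent whole mouse genome arrays, which were scanned with Agilent Feature Extraction 7.5. The authors deposited spot intensity (mean and median signal, local background), the software's log10 ratio of red over green and its p-value, and a log2 value table. Of its values 40962 of 41001 and 41101 of 41141 on the arrays with DKO in Cy5 and Cy3 lay within 0.001 of the software ratios. Intensities were background-corrected (normexp, offset 50) and loess-normalised within each array with limma 3.58.1 (R 4.3.3), giving control spots no weight. Ratios were turned to DKO over WT, and spots marked as outliers were left out. The normalisation and size rule were tested on simulated data. Ratios are compressed at low intensity by the offset. Gene names were updated through RefSeq: 32 member probes matched by accession, 5 by symbol and 2 by older symbol, and 7 changed name. Named genes were Fbxo31, the 10 highest and 10 lowest measured members, and F-box genes of known role; the further F-box probes and the processing alternatives are given in the text. The members and lists were chosen with earlier results of these data known. The second deleted gene is not reported here.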

Additional observations from a re-analysis of the deposited data

How the results depend on the processing

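Among the probes read, Fbxo31 was the 1 counted as higher, with 0 lower, under each of the 15 alternatives run. Of these, 14 read the members alone. The median over the members stayed close to 0. The log2 ratio of Fbxo31 was 1.92 with a background offset of 16, 1.98 both from the deposited value table and from the scanner's processed ratios, and 1.95 with median centring in place of loess; on the single arrays it was 1.85 (DKO in Cy5) and 1.79 (DKO in Cy3). The gap to the next F-box probe was 1.28 when the further F-box probes were added, an alternative chosen after seeing the data, and, among the members, 1.56 and 1.41 on the same arrays. Over the whole array, probes counted as higher numbered 61 with either the value table or the scanner's processed ratios, 104 at 1.5-fold, 7 at 3-fold, and 33 with DKO in Cy5 alone and 65 with DKO in Cy3 alone. Probes counted as lower numbered 13 with the offset of 16, 33 with either the value table or the scanner's processed ratios, 74 at 1.5-fold, 0 at 3-fold, and 39 with DKO in Cy5 alone and 9 with DKO in Cy3 alone; the cause of these changes was not tested. No paired analysis was possible because the 2 arrays hold the same comparison with the dyes exchanged and share 1 replicate number. With 1 replicate per genotype and 1 Fbxo31 probe, neither the spread between mice nor a probe effect could be measured, and dim probes such as Fbxo32 have ratios that depend on the background correction.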
